A study of Mus musculus with 3 samples.

Results

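The genes described here are the collagen chains of the mouse genome other than 4 cartilage collagen chains. They are all genes whose symbol has the form Col, a number, the letter a and a number, without Col2a1, Col9a1, Col9a2 and Col9a3. The rule found 44 symbols among the 32285 genes counted and kept 40 of them. The series counted RNA cell by cell in the palatal shelves, the outgrowths of the upper jaw that grow, lift and fuse into the secondary palate. All 3 libraries came from wild-type C57BL/6J mouse embryos without treatment, 1 library for each of the embryonic stages E13.5 and E14.5 and the oldest, E15.5 (the number is the day of gestation), and each pooled the tissue of 3 embryos. The tissue was digested with TrypLE, the cells were fixed in methanol, and RNA molecules were counted by their unique molecular identifiers (UMIs) with the 10x Genomics droplet method. Since each stage is 1 library, stages were not tested against each other, and every interval below covers counting error only.

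Collagens are secreted or membrane proteins in which 3 chains wind into a triple helix. Fibrillar collagens, types I, III, V and XI among them, build the fibrils that give connective tissue and bone their strength. Type IV forms the sheet-like network of basement membranes, type VI forms beaded filaments around cells, and type VII anchors epithelial basement membranes to the tissue beneath. Fibril-associated collagens sit on the surface of fibrils, transmembrane collagens span the cell membrane, and types XV and XVIII (the multiplexins) lie in or beside basement membranes. In the palatal shelf the mesenchyme, made largely by neural crest, lays down most of the fibrillar matrix, bone and cartilage form within it, and an epithelium covers it.

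Levels are given as CPM, in which the UMIs of a gene summed over the cells of a class are divided by all UMIs of these cells and scaled in the usual way. CPM is not scaled to transcript length, so the levels of 2 genes are not ranked against each other, and shares of summed collagen UMIs count molecules without regard to length. Cell classes were gated on marker genes, at least 2 of a list of 10 (3 for cartilage), and no collagen was among the markers. The mesenchymal lineage joins the mesenchymal, osteogenic (bone-forming) and chondrogenic (cartilage-forming) classes and held 448, 1022 and 1527 cells in order of stage, with 1191772, 2892662 and 4679288 UMIs.

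The libraries differed in what they held. Of the 3583, 1750 and 2584 cells kept at the 3 stages, the mesenchymal lineage made up 12.5%, 58.4% and 59.1%, while 1933, 134 and 190 cells passed the neuronal gate. A palatal shelf holds few neurons, so most cells of the E13.5 library do not match its tissue label, and all values below are within gated classes unless stated. Median UMIs per barcode were close, at 1735, 1614 and 1699, and pairs of libraries shared 3, 1 and 1 cell barcodes. In the lineage all 10 mesenchymal markers were detected, with a summed level of 2273, 3421 and 3758 CPM at the 3 stages. The 10 neuronal markers summed to 321, 307 and 253 CPM there, the 10 neural progenitor markers to 237, 321 and 319, and the 10 meningeal markers to 243, 166 and 156. The part of these other cells in the stage differences was not tested. Outside the lineage, the classes with at least 20 cells at E14.5 and E15.5 and their own 10 markers detected included stratified epithelial (56 and 158 cells), endothelial (50 and 65), Schwann-lineage glial (37 and 50) and myeloid cells (65 and 105). The osteogenic class was small, with 3, 44 and 59 cells, and at E15.5 its osteogenic markers (2381 CPM) summed to less than its mesenchymal markers (3085 CPM), with Mepe at 0.

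Most of the collagen RNA of the lineage was higher at E14.5 and E15.5 than at E13.5. The 40 genes together made up 4584 CPM of lineage RNA at E13.5 (5463 UMIs), 11989 CPM at E14.5 (34681 UMIs) and 13145 CPM at E15.5 (61511 UMIs). Against E13.5 the log2 ratio was 1.39 at E14.5 and 1.52 at E15.5, and between the later stages it was 0.13, or -0.038 in cells with no neural marker UMI. The ratio between the later stages was thus small beside those against E13.5. Of the 40 members, 29 had a mean of at least 5 CPM over the libraries and were compared with all 11538 genes that passed the same filter. A gene was called 2-fold higher or lower on levels with 1 CPM added to both. At E14.5 15 of these 29 were at least 2-fold higher than at E13.5, where 9.12% of all tested genes were, and 0 were at least 2-fold lower, where 3.53% were. At E15.5 16 of 29 were at least 2-fold above the level of E13.5 (background 10.9%) and 0 lower (background 5.43%). From E14.5 to E15.5, 0 were at least 2-fold higher (background 0.997%) and 1, Col11a2, was lower (background 1.38%). Col13a1 was just short of the call, and its ratio without the added 1 CPM was 0.484. The median log2 ratio of the 29 was 1.06, 1.40 and 0.17 for these comparisons, and that of all tested genes was 0.01, -0.01 and 0.00.

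**Figure D1:**
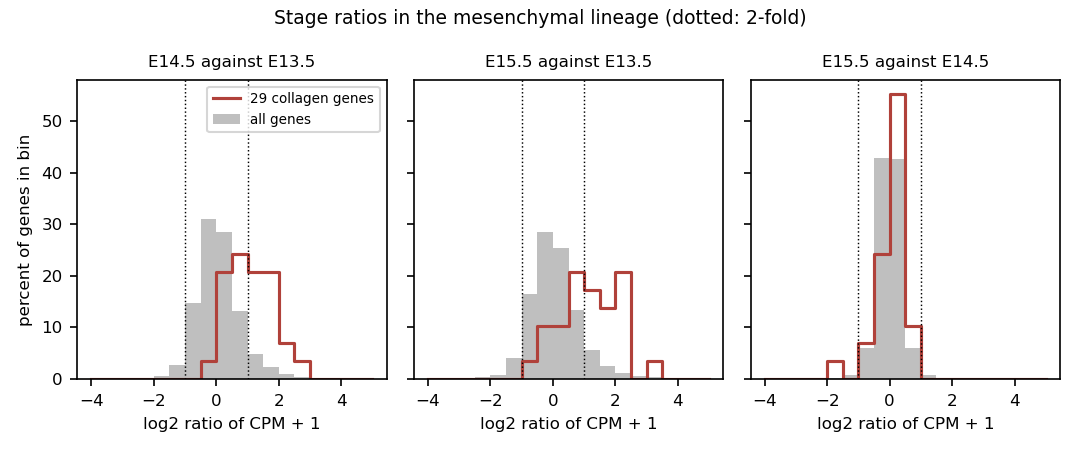
Log2 ratio of CPM in the mesenchymal lineage (1 CPM added to both) for the 29 collagen genes with a mean of at least 5 CPM, beside the distribution over all 11538 genes, for each pair of stages. The collagen genes centre at 1.06 and 1.40 for the later stages against E13.5, and at 0.17 between the later stages.

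The genes of the main fibril held much of the difference in summed level, which counts UMIs without regard to length. Col1a1 (chr11:94936224-94953042, plus strand, GRCm38), which encodes the α1 chain of type I collagen, the main protein of bone and skin, stood at 423 CPM at E13.5 (387 to 462), 3184 CPM a day later (3119 to 3249) and 3524 CPM at E15.5 (3470 to 3578). It was thus 7.53-fold higher at E14.5 than at E13.5 (counting interval 6.88 to 8.25) and 8.33-fold higher at E15.5 (7.63 to 9.12), and 1.11-fold higher at E15.5 than at E14.5. In cells with no neural marker UMI the log2 ratio of the later stages was -0.14. Col1a2, the α2 chain of the same molecule, stood at 597, 2414 and 2806 CPM, which is 4.04-fold (3.74 to 4.37) and 4.70-fold above E13.5. Col3a1, the single chain of type III collagen, which mixes with type I in soft tissue, stood at 436, 1214 and 1368 CPM, or 2.78-fold and 3.13-fold (2.87 to 3.43) above E13.5. Together these 3 genes made up 31.8%, 56.8% and 58.6% of the collagen UMIs of the lineage. None of the 3 had intervals that overlapped between E13.5 and a later stage.

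The share of cells with a UMI followed the same order. After every lineage cell was thinned to 1500 UMIs (296, 670 and 1046 cells, with 152, 352 and 481 shallower cells left out), Col1a1 was seen in 35.1% of cells at E13.5 (29.7 to 40.9), 89.0% at E14.5 and 93.5% at E15.5. Without thinning its shares were 46.7%, 90.4% and 94.0%. Col1a2 was seen in 45.6%, 87.3% and 90.2% and Col3a1 in 42.6%, 74.9% and 77.1%. Myeloid cells, which are not known to make these collagens, served as the background. Thinned in the same way (11, 37 and 56 cells), they held a Col1a1 UMI in 18.2%, 18.9% and 19.6% of cells, a Col1a2 UMI in 9.09% to 17.9% and a Col3a1 UMI in 9.09% to 14.3%. Their mesenchymal markers summed to 219 and 270 CPM at the later stages. The source of these UMIs, and their part in other classes with low levels of the 3 genes, was not tested.

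The α1 and α2 chains of type I collagen were not scaled alike between stages. The ratio of Col1a1 to Col1a2 UMIs in the lineage was 0.708 at E13.5 (0.630 to 0.795), 1.32 at E14.5 and 1.26 at E15.5. In the chondrogenic class it was 0.245, 0.904 and 1.14, and in the osteogenic class, for the later stages, 1.56 and 1.34. A ratio of 2 genes in UMIs depends on how each transcript is captured, so only its differences between cells and stages are read here.

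The other fibrillar chains split into 2 patterns. Col5a1 and Col5a2, chains of type V collagen, which starts fibrils and limits their width, followed type I with 104, 218 and 310 CPM and 241, 609 and 760 CPM. These are 2.98-fold and 3.15-fold above E13.5 at the oldest stage. Col24a1, a fibrillar chain known from developing bone, stood at 33.6, 76.4 and 93.2 CPM (2.78-fold at E15.5). Col27a1, a fibrillar chain of cartilage, differed less, with 112, 161 and 143 CPM.

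Col11a1 (chr3:114030540-114220718, plus strand), a chain of type XI collagen that nucleates fibrils in cartilage, did not follow type I in the lineage as a whole. It stood at 1129, 1105 and 901 CPM, a ratio of 0.797 (0.75 to 0.848) at E15.5 against E13.5. Within the mesenchymal class alone it went the other way, with 471, 682 and 755 CPM, 1.60-fold above E13.5 at the oldest stage (1.45 to 1.77). Chondrogenic cells, which carried it at 4722, 5027 and 4376 CPM, were 57 of 448 lineage cells at E13.5 and 43 of 1527 at E15.5. Its ratio to Col5a1 in the lineage was 10.9, 5.07 and 2.90, and in the mesenchymal class 4.28, 3.12 and 2.37. Col11a2, its partner chain, was at 51.2, 117 and 31.4 CPM in the lineage and at 10.1, 10.7 and 4.36 CPM in the mesenchymal class, so most of its lineage level lay in the small chondrogenic and osteogenic classes. Its ratio of 0.270 (0.221 to 0.328) for E15.5 against E14.5 is the 1 lower call given above.

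**Figure D2:**
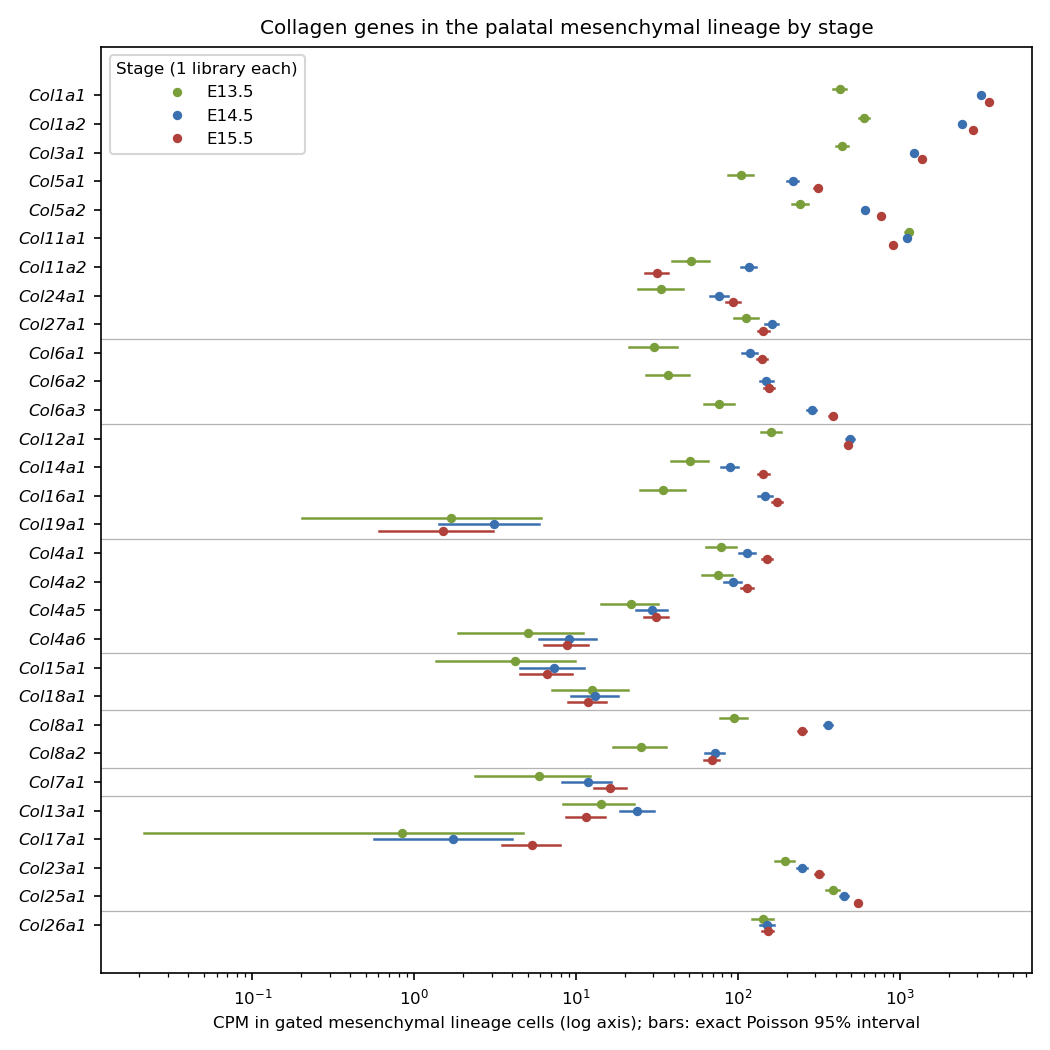
CPM in the mesenchymal lineage (log axis) of the named collagen genes by stage, 1 library per stage, with exact Poisson 95% intervals. Col1a1 goes from 423 to 3184 and 3524 CPM, while Col11a1 stays between 901 and 1129 CPM.

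The matrix that surrounds cells and fibrils was higher after E13.5 as well. The 3 main chains of type VI collagen stood at 30.2, 118 and 141 CPM (Col6a1), 36.9, 149 and 155 CPM (Col6a2) and 76.4, 285 and 383 CPM (Col6a3). At E15.5 they were 4.66-fold, 4.21-fold and 5.02-fold above E13.5. Col6a1 and Col6a2, whose products join with that of Col6a3, had a UMI ratio of 0.818, 0.789 and 0.905. Among fibril-associated chains, Col12a1, found in tendon and under load, stood at 159, 490 and 475 CPM and Col16a1 at 34.4, 146 and 173 CPM (5.03-fold at E15.5). Col14a1, which binds fibrils through decorin, differed more gradually, with 50.3, 88.8 and 143 CPM. The short-chain collagens Col8a1 and Col8a2, known from vessels and the eye, stood at 94.0, 360 and 249 CPM and 25.2, 71.6 and 68.6 CPM. Col8a1 was thus highest at E14.5, with a ratio of 0.693 at E15.5 against E14.5, but in cells with no neural marker UMI the log2 ratio was 0.19.

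None of the 4 type IV, 2 multiplexin and 3 transmembrane chains that passed the 5 CPM filter in the lineage had a log2 ratio of at least 1 in size between any stages with 1 CPM added to both levels. Col4a1 and Col4a2, the chains of the common type IV collagen, stood at 78.9, 114 and 151 CPM and 74.7, 92.6 and 114 CPM. The interval of Col4a2 for E14.5 against E13.5 included no difference (1.24-fold, 0.973 to 1.60). Col4a5 and Col4a6 were at 21.8, 29.4 and 31.2 CPM and 5.03, 8.99 and 8.76 CPM, Col15a1 at 4.20, 7.26 and 6.62 CPM and Col18a1 at 12.6, 13.1 and 11.8 CPM. Col26a1, a secreted collagen first described in gonads, was nearly level at 142, 151 and 152 CPM. Col7a1 was at 5.87, 11.8 and 16.2 CPM, 2.77-fold higher at the oldest stage than at the youngest. Col13a1 was at 14.3, 23.9 and 11.5, Col17a1 at 0.839, 1.73 and 5.34, and Col19a1 at 1.68, 3.11 and 1.50.

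Col25a1 and Col23a1, transmembrane collagens, had lineage values that differed from those within several clusters. Col25a1, known for its need in motor nerve ingrowth to muscle, stood at 383, 453 and 547 CPM in the lineage, and Col23a1 at 194, 247 and 316 CPM. The lineage cells were also split by clusters built without collagen genes. In cluster 3, a mesenchymal cluster present at each stage (70, 211 and 303 lineage cells), Col25a1 was lower at E14.5 and E15.5 than at E13.5, with 545, 173 and 249 CPM. It was lower too in mesenchymal clusters 12 (460, 196 and 252 CPM), 13 (291, 203 and 67.8 CPM) and 21 (608, 342 and 296 CPM). In chondrogenic cluster 19 it was higher, with 127, 180 and 1011 CPM, and in the chondrogenic class at E15.5 33.5% of its UMIs came from 1 cell. Cluster 18, led by Klhl1, Cdh20 and Meox2, reached 98 and 113 lineage cells only at E14.5 and E15.5 and held Col25a1 at 985 and 1763 CPM. Col23a1 was lower at E15.5 than at E13.5 in clusters 3 (315 and 159 CPM) and 21 (539 and 235 CPM), close in cluster 12 (206 and 193 CPM) and higher in clusters 13 (125 and 206 CPM) and 19 (13.4 and 236 CPM). With the mix of the 5 clusters shared by all stages held fixed, which leaves 86.4%, 58.5% and 48.0% of the lineage cells and drops cluster 18, the log2 ratio between the oldest and youngest stage was -0.61 for Col25a1 and -0.60 for Col23a1. The share of thinned lineage cells with a Col25a1 UMI was level, at 26.0%, 25.5% and 26.4%.

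Col1a1 was higher after E13.5 in each cluster with at least 20 lineage cells at all stages. Its level was 784, 3426 and 4133 CPM in cluster 3 and 311, 3316 and 3240 CPM in cluster 13. In cluster 12, with 42.9% of all lineage cells at E13.5 but 3.91% and 2.29% later, it was 499, 2978 and 2891 CPM. In cluster 21, where Ibsp, Runx2 and Sp7 were among the leading genes, it was 621, 4822 and 4174 CPM, with 20, 220 and 283 lineage cells. Chondrogenic cluster 19 was lowest, at 66.8, 736 and 1096 CPM.

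**Figure D3:**
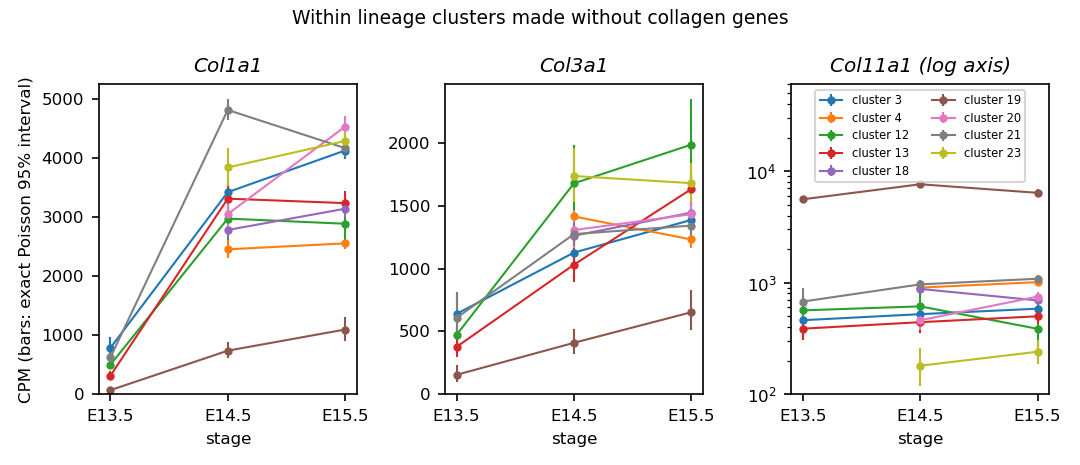
CPM of Col1a1, Col3a1 and Col11a1 (log axis) by stage in each cluster with at least 20 lineage cells in that stage, clustered without collagen genes. Col1a1 is lowest at E13.5 in every cluster shown at all stages, from 66.8 to 784 CPM, while Col11a1 is highest in chondrogenic cluster 19.

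Across cell classes the chains had their highest levels in several tissues. By mean CPM over the stages with at least 20 cells, 21 members were highest in a class of the mesenchymal lineage, 16 in another class, and 3 (Col6a4, Col6a5 and Col10a1) had too few UMIs to place. The 21 were 56.8% of the 37 members placed, and of all 14196 genes placed by the same rule 17.7% were highest in the lineage. Those means lack E13.5 for osteogenic, stratified epithelial, endothelial and glial cells, and the muscle mean, which leads for Col19a1 and Col26a1, rests on E14.5 alone (14 and 28 UMIs). A count over equal stages is that of the 23 members led by the same class at both later stages. These were 7 in osteogenic cells, 4 in chondrogenic, 3 in mesenchymal, 4 in stratified epithelial, 3 in endothelial and 2 in Schwann-lineage glial cells. Of the 4859 genes led by 1 class at both of these stages, 16.1% were led by a class of the lineage, 4.40% by osteogenic, 6.98% by chondrogenic and 4.73% by mesenchymal cells. The stratified epithelial class led 7.49% of them, the endothelial 10.6% and the glial 9.86%.

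**Figure D4:**
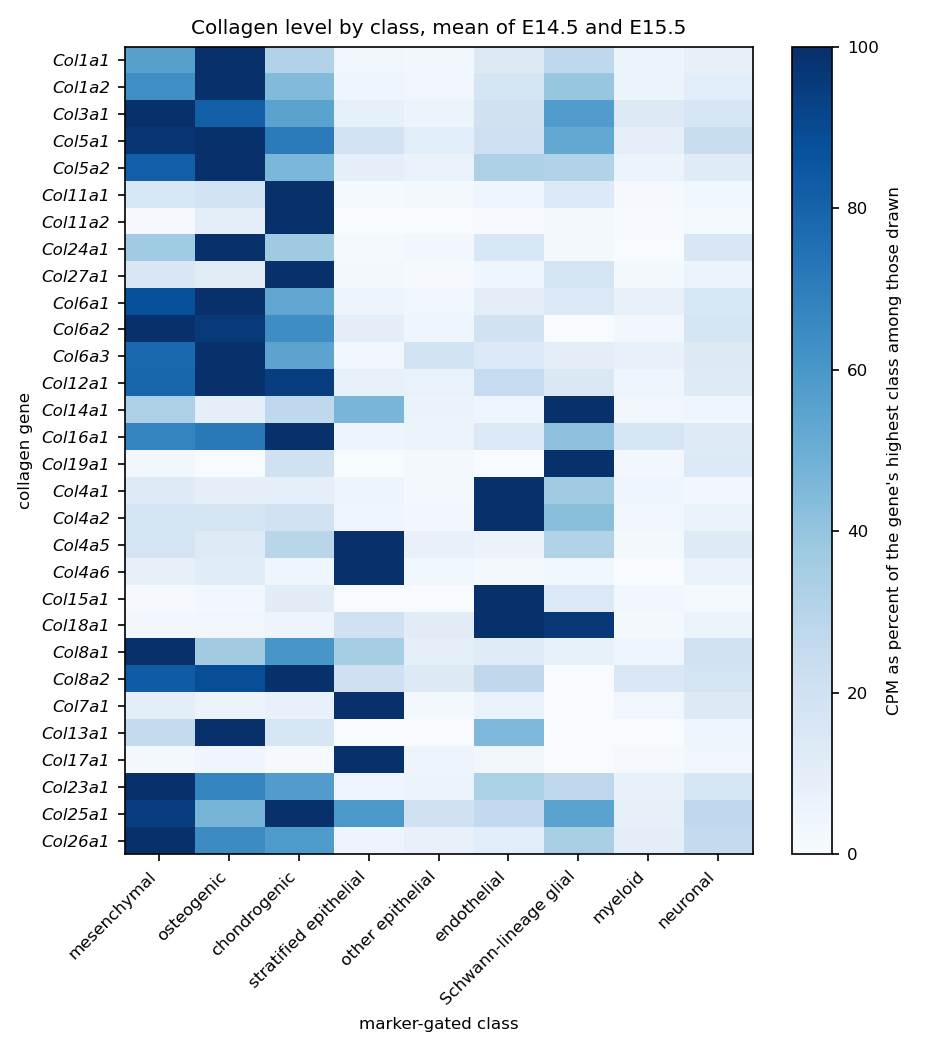
Mean CPM at E14.5 and E15.5 of each named collagen gene (rows) in the gated classes with at least 20 cells at both stages (columns), as percent of the gene's highest among these columns. Muscle, with 21 and 8 cells, is not shown, though it held more Col19a1 and Col26a1 at E14.5. Col1a1 and Col1a2 are highest in the osteogenic column, Col3a1 in the mesenchymal, and Col11a1, Col11a2 and Col27a1 in the chondrogenic, and for the last 3 the other lineage columns reach at most 18.6%. Highest elsewhere are Col4a1, Col4a2 and Col15a1 in the endothelial column and Col4a5, Col4a6, Col7a1 and Col17a1 in the stratified epithelial column.

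DNA upstream of 3 genes of unlike pattern is shown, so that a mesenchymal, a cartilage and an epithelial chain can be set side by side. Each is the 250 bases before the start of the RefSeq gene on the strand of the gene (GRCm38.p6), with no annotated exon in it. The 3 were picked after their motif matches and exon overlap had been seen. Capitals mark TATAAA (the TATA box), GGGCGG (the GC box) and CCAAT, which reads ATTGG on the other strand. The stretches lie at chr1:45311288-45311537 for Col3a1, chr3:114030290-114030539 for Col11a1 and chr9:108953336-108953585 for Col7a1, all on the plus strand.
Col3a1: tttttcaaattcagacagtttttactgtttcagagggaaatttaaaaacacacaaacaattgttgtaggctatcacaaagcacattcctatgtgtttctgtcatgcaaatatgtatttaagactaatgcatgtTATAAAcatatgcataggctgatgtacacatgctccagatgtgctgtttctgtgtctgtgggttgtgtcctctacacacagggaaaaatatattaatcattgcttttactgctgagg
Col11a1: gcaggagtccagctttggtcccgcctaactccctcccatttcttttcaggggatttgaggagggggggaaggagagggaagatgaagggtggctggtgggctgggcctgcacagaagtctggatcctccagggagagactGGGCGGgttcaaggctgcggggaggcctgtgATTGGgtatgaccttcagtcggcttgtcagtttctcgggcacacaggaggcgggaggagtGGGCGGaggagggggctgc
Col7a1: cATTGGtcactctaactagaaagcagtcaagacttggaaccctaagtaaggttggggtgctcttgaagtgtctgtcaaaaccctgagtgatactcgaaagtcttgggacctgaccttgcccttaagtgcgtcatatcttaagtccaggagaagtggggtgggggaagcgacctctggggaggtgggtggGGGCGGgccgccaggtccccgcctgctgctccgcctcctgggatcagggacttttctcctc
Col3a1 has TATAAA starting 117 bases before its start and neither of the other motifs. Col11a1 has GGGCGG at 110 and 19 bases and CCAAT at 79 bases before its start, and Col7a1 has CCAAT at 249 bases and GGGCGG at 61 bases. Both strands were searched, and no match of one motif overlaps a match of another in these 3 stretches. RefSeq windows were found for 33 of the 40 symbols, 35 windows in all. GGGCGG was in 21 of the 35 (60%) against 32.7% of the 32851 windows of all genes, CCAAT in 12 (34.3%) against 33.8%, and TATAAA in 5 (14.3%) against 12.4%. A match describes letters only and says nothing of a factor.

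Among gated classes of at least 20 cells, bone-forming cells carried the most type I collagen at E14.5 and E15.5. With a stricter gate of at least 3 markers, mesenchymal cells led for Col1a1 and Col1a2. They also led by clusters, of which none was named osteogenic. Col1a1 stood at 6498 CPM in osteogenic cells at E14.5 and 5169 at E15.5, against 3097 and 3435 in mesenchymal cells, 2.10-fold (1.98 to 2.23) and 1.50-fold (1.43 to 1.58) higher. Single cells weighed on these sums: 304 of the 1280 UMIs at E14.5 and 288 of the 1947 at E15.5 came from 1 cell. Col1a2 stood at 4152 and 3871 CPM, 1.77-fold and 1.41-fold above mesenchymal cells. Col13a1, a transmembrane collagen, was 4.18-fold (2.26 to 7.38) and 3.29-fold (1.57 to 6.39) higher, at 86.3 and 31.9 CPM. Col24a1 was 4.26-fold (3.06 to 5.84) and 1.63-fold (1.2 to 2.18) higher, at 274 and 143 CPM, but 24 of its 54 UMIs at E14.5 came from 1 cell. Col8a1 was lower than in mesenchymal cells, at ratios of 0.298 (0.188 to 0.451) and 0.450 (0.326 to 0.606). In all, 5 of 29 tested members were at least 2-fold higher than in mesenchymal cells at E14.5 (background 8.92%) and 4 lower (background 11.9%). At E15.5 5 of 33 were higher (background 6.85%) and 4 lower (background 6.94%).

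Cartilage cells had their own fibrillar set even with type II and IX chains left aside. Col11a1 was 10.0-fold (8.95 to 11.2), 7.37-fold (6.85 to 7.92) and 5.79-fold (5.35 to 6.27) higher in chondrogenic than in mesenchymal cells at the 3 stages. Col11a2 was at 269, 1046 and 668 CPM there, 26.6-fold (13.3 to 58.8), 97.5-fold (65.1 to 152) and 153-fold (92.9 to 268) higher. Col27a1 was at 387, 789 and 680 CPM, 6.28-fold, 8.13-fold and 5.43-fold higher. Of type I, Col1a1 was lower at each stage: it stood at 134, 1559 and 2091 CPM, at ratios of 0.282 (0.181 to 0.422), 0.504 (0.456 to 0.555) and 0.609 (0.547 to 0.675). Col1a2 stood at 549, 1725 and 1840 CPM, at ratios of 0.910 (0.730 to 1.12), 0.734 (0.667 to 0.806) and 0.669 (0.597 to 0.748). Its interval at E13.5 thus included no difference. Col6a3 had ratios of 0.124, 0.584 and 0.783. The mesenchymal markers in these cells summed to 710, 1937 and 2719 CPM over the same stages. Their part in the Col1a1, Col1a2 and Col6a3 values was not tested. At E13.5 5 of 26 tested members were at least 2-fold higher (background 10.4%) and 13 lower (background 17.6%). At E14.5 6 of 31 were higher (background 9.27%) and 8 lower (background 11.4%), and at E15.5 4 of 29 were higher (background 9.08%) and 2 lower (background 12.5%).

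Among classes with at least 20 cells, endothelial cells, which line vessels, carried the most Col4a1, Col4a2 and Col15a1. They also held high Col18a1 but little of the other type IV chains. Mural cells, the supporting cells of vessel walls, were too few to enter. At E15.5 18 mural cells held 69 Col4a1 and 27 Col4a2 UMIs of 54505. The endothelial class held 241 and 136 of 226089. Col4a1 (chr8:11198423-11312826, minus strand) stood at 1151 CPM at E14.5 and 1066 at E15.5, 9.85-fold (8.21 to 11.8) and 6.79-fold (5.83 to 7.88) above mesenchymal cells. Col4a2 (chr8:11312805-11449287, plus strand) stood at 589 and 602 CPM, 6.83-fold and 5.09-fold higher. The 2 genes lie head to head, and their annotated transcripts overlap by 22 bases. Their UMI ratio was 1.95 and 1.77 in endothelial cells and 1.15, 1.35 and 1.33 in mesenchymal cells in order of stage. Col15a1 stood at 423 and 358 CPM, 128-fold (61.9 to 307) and 87.0-fold (51.1 to 157) higher. Col18a1, whose C-terminal piece is endostatin, stood at 434 and 402 CPM, 40.4-fold (25.7 to 65.5) and 35.3-fold (24.6 to 51.4) higher. After thinning, Col4a1 was seen in 80.0% of 35 and 83.3% of 42 endothelial cells (80.0% and 81.5% without thinning) and in 5.41% and 3.57% of myeloid cells.

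Other chains were low in endothelial cells, with 19 of 29 tested members at least 2-fold lower than in mesenchymal cells at E14.5 (background 18.8%) and 21 of 31 at E15.5 (background 20.1%). Higher were 5 (background 13.8%) and 6 (background 14.8%). Col1a1 was at 1092 CPM at E14.5, with 40.2% of its UMIs from 1 cell, and at 425 CPM at E15.5. The mesenchymal markers summed to 910 and 389 CPM in the class, and their part in these values was not tested.

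**Figure D5:**
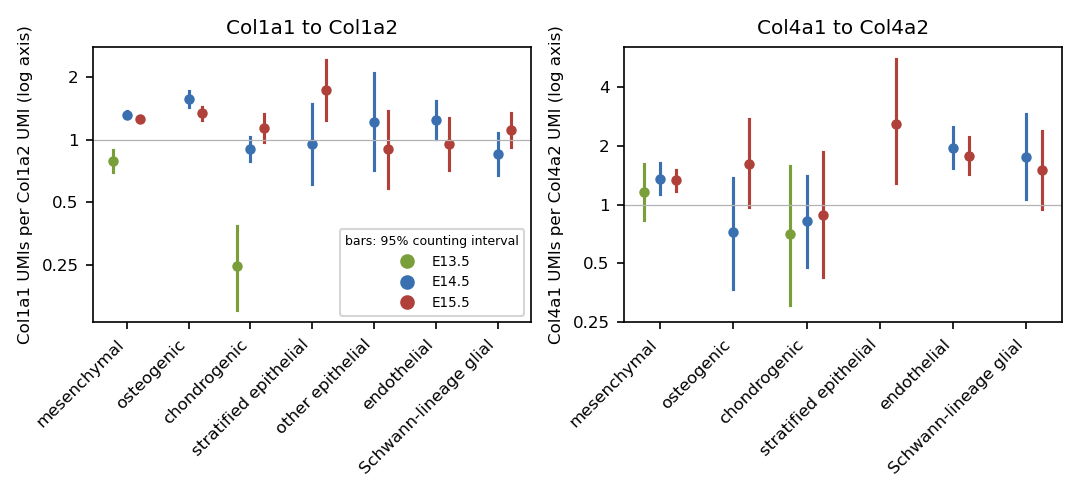
Ratio of UMIs of Col1a1 to Col1a2 and of Col4a1 to Col4a2 (log axis) by gated class and stage, in classes with at least 20 cells, with exact 95% counting intervals. Col1a1 to Col1a2 in chondrogenic cells goes from 0.245 to 1.14, and Col4a1 to Col4a2 is 1.95 and 1.77 in endothelial cells.

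The stratified epithelium, a layered epithelium rich in keratins, carried chains that tie it to its base. Col17a1, the transmembrane collagen of hemidesmosomes, stood at 147 CPM at E14.5 and 244 at E15.5, 89.0-fold (31.1 to 349) and 53.1-fold (32.6 to 91.2) above mesenchymal cells. Col7a1 (chr9:108953586-108984875, plus strand), the anchoring fibril chain, stood at 142 and 166 CPM, 11.1-fold (6.36 to 19.2) and 9.63-fold (6.92 to 13.4) higher. Col4a5 and Col4a6, partner chains of an epithelial type IV collagen, stood at 142 and 198 CPM and at 57.7 and 166 CPM. The first was 4.97-fold (3.06 to 7.87) and 6.43-fold (4.89 to 8.44) higher than in mesenchymal cells, the other 6.08-fold (2.68 to 13.0) and 20.1-fold (13.3 to 30.9). The 2 genes lie head to head on the X chromosome, 1308 bases apart.

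Within this epithelium Col4a6 was 2.87-fold higher at E15.5 than at E14.5 (1.52 to 5.97), Col18a1 2.52-fold (1.24 to 5.79), Col14a1 1.92-fold (1.22 to 3.16) and Col17a1 1.66-fold (1.10 to 2.61). Col4a5 and Col7a1 had intervals that included 1, at 1.40-fold (0.904 to 2.23) and 1.17-fold (0.748 to 1.88). The UMI ratio of Col4a5 to Col4a6 was 2.45 and 1.2 there. The summed stratified markers were 3405 and 6239 CPM at these stages, and their part in the differences was not tested. After thinning, Col17a1 was seen in 19.1% of 47 and 33.9% of 109 cells (28.6% and 39.9% without thinning) and Col7a1 in 17.0% and 21.1% (30.4% and 34.2%). In contrast, none of these chains except Col14a1 and Col18a1 was seen in a thinned myeloid cell at E14.5 or E15.5. Without thinning, the myeloid means over these stages were 3.13 CPM for Col4a5, 5.03 for Col7a1, 1.90 for Col17a1 and 0 for Col4a6. The value of 535 CPM of Col25a1 at E14.5 came almost wholly from 1 cell, with 99 of 102 UMIs.

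In the stratified class 21 of 29 tested members were at least 2-fold lower than in mesenchymal cells at E14.5 (background 19.3%) and 21 of 28 at E15.5 (background 16.3%), and 5 were higher at each stage (background 16.5% and 13.9%). Epithelial cells outside it (86, 64 and 115 cells) were poorer in collagens. There 1 of 26, 2 of 30 and 2 of 29 tested members were higher (background 12.6%, 19.5% and 19.7%) and 21, 25 and 25 lower (background 18%, 18.5% and 18.4%). Col18a1 was the member higher at all 3 stages, at 44.5, 38.4 and 54.9 CPM, 2.94-fold, 3.58-fold and 4.82-fold above mesenchymal cells.

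Schwann-lineage glia, the ensheathing cells of nerves, carried a mixed set. Col18a1 stood at 332 CPM at E14.5 and 476 at E15.5, 30.9-fold (18.4 to 52.8) and 41.8-fold (27.9 to 62.7) above mesenchymal cells. Col14a1 stood at 381 and 377 CPM, 3.97-fold (2.83 to 5.46) and 2.48-fold (1.80 to 3.35) higher. Col4a1 stood at 390 and 418 CPM, 3.34-fold and 2.66-fold higher. Col19a1, a rare fibril-associated chain, was at 16.6 CPM at E14.5 from 2 UMIs, 10.0-fold higher (0.909 to 70.1), and at 107 CPM at E15.5 from 13 UMIs, 73.3-fold higher (26.0 to 235). In the glial class 9 of 32 tested members were at least 2-fold higher at E14.5 (background 16.7%) and 13 lower (background 23.3%), and 9 of 31 and 13 were at E15.5 (background 17.1% and 23.2%).

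Type I and III chains were also counted in these glia. Col1a2 stood at 306, 1368 and 1771 CPM and Col3a1 at 204, 721 and 836 CPM, on 15 and 10 UMIs at E13.5. Col1a1 stood at 0, 1161 and 1968 CPM, 0.375 and 0.573 of the mesenchymal level at E14.5 and E15.5, and the 0 at E13.5, from 16 cells whose neural progenitor markers (3321 CPM) outweighed their glial ones (2241 CPM), allows up to 61.1 CPM. After thinning, 62.5% of 24 cells (40.6 to 81.2) at E14.5 and 59.4% of 32 cells (40.6 to 76.3) at E15.5 held a Col1a1 UMI, above the 18.9% and 19.6% of myeloid cells. Without thinning the glial shares were 62.2% and 62.0%. The mesenchymal markers summed to 373 and 221 CPM in glia and to 219 and 270 CPM in myeloid cells.

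The remaining 10 members never reached 50 CPM in a class of at least 20 cells. They are Col4a3, Col4a4, Col5a3, Col6a4, Col6a5, Col6a6, Col10a1, Col20a1, Col22a1 and Col28a1, and their highest class levels ranged from 3.67 to 49.2 CPM. Col10a1, the chain of hypertrophic cartilage, had 1 UMI in all cells kept. Chosen after its values were seen, Col22a1, a chain of tissue junctions, was 9.59-fold higher in osteogenic than in mesenchymal cells at E15.5, on 14 against 16 UMIs.

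Of a list of 41 genes that modify, export, trim, crosslink or bind collagens, 39 passed the 5 CPM filter in the lineage. At least 2-fold higher than at E13.5 were 12 of 39 at E14.5 and 11 at E15.5, 0 were at least 2-fold lower with 1 CPM added to both levels, and the median log2 ratios were 0.55 and 0.56. Over all tested genes 9.12% and 10.9% were higher, 3.53% and 5.43% lower, and the medians were 0.01 and -0.01. From E14.5 to E15.5, 0 were at least 2-fold higher (0.997% of all tested genes) or lower (1.38%), and the median was -0.04. The largest ratios of E15.5 to E13.5 belonged to crosslinking enzymes and a propeptide protease. Loxl1 stood at 4.20, 49.8 and 68.4 CPM (log2 ratio 3.74), Lox at 32.7, 148 and 197 CPM (2.55) and Adamts2, which trims the N-terminal propeptides of fibrillar collagens, at 31.1, 92.0 and 135 CPM (2.09). Pcolce2, an enhancer of C-propeptide cleavage, stood at 10.9, 5.19 and 5.13 CPM (-0.96), the lysyl hydroxylase Plod2 at 473, 325 and 286 CPM (-0.72), and Tmem38b, an ion channel of the endoplasmic reticulum, at 17.6, 8.99 and 11.8 CPM (-0.55).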

How the data were processed

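Single-cell RNA was measured in palatal shelves at 3 stages. The authors deposited raw UMI counts per gene and barcode. Cell Ranger 6.1.2 made them, per the file headers, against mm10 per the submitters' processing notes. The annotation version is not given in the sources used here. Libraries held 11472663, 5293977 and 8313677 UMIs in 4236, 2079 and 3113 barcodes. Barcodes with under 500 genes (544, 304 and 473) and the highest doublet scores (109, 25 and 56) were left out, at 0.8% per 1000 barcodes, because the automatic threshold of scrublet called only 0.0617%.

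Cells were gated on lists of 10 markers. The chondrogenic gate was raised to 3 markers after the clusters had been seen. Clustering used scanpy 1.11.5 and igraph 0.11.9 without collagen genes (2000 variable genes, 30 components, 15 neighbours, resolution 1). CPM of summed UMIs carry exact Poisson 95% intervals, shares Clopper-Pearson intervals after thinning, and folds conditional binomial intervals. PCR duplicates are removed by the UMIs, and intervals cover counting error only. A count of 0 allows 3 counts. Log2 ratios had 1 CPM added. No test between stages was possible.

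Tested on simulated data with 200 of 11493 genes changed 4-fold, the ratio step recovered 97% and called 1.48% of unchanged genes. The simulated counts held counting error alone, so these shares leave out differences between cells and between libraries. Members reaching 50 CPM in a class of at least 20 cells are named with their values. The 3 largest and 3 smallest ratios of the 41 pathway genes are named too. Members and lists were chosen with earlier results of these data known. Alternatives changed the gates, filters, scaling (edgeR 4.0.16 TMM), pseudocount, doublets and cluster mix. The values flagged for a closer look were limited to genes with at least 20 UMIs and at most 25% of them from 1 cell, a limit set after a longer list had been seen.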

Additional observations from a re-analysis of the deposited data

Results flagged for a closer look

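Barcodes with under 500 genes, which no comparison used, still held collagen UMIs. The 40 genes summed to 877 CPM in 544 such barcodes at E13.5 (367 UMIs), 7631 CPM in 304 at E14.5 (1660 UMIs) and 5063 CPM in 473 at E15.5 (2365 UMIs). A count of 0 would allow 7.17, 13.8 and 6.42 CPM there.

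For 3 gene and stage pairs, ratios pointed in opposite directions in 2 classes, with counting intervals on opposite sides of 1. With 1 library per stage, the difference between classes was not tested. Col11a1 at E15.5 against E13.5 was 1.60-fold in mesenchymal cells (1.45 to 1.77) and 0.535-fold in other epithelial cells (0.323 to 0.879, on 31 against 39 UMIs). Col1a1 at E15.5 against E14.5 was 1.11-fold in mesenchymal cells (1.08 to 1.14), 0.796-fold in osteogenic cells (0.741 to 0.854) and 0.588-fold in other epithelial cells (0.368 to 0.949). In the osteogenic class 1 cell gave 304 of the 1280 UMIs at E14.5, and 1 cell gave 288 of the 1947 at E15.5. Col11a1 at E15.5 against E14.5 was 1.11-fold in mesenchymal cells (1.04 to 1.18), 0.871-fold in chondrogenic cells (0.796 to 0.952) and 0.433-fold in stratified epithelial cells (0.208 to 0.907, on 18 against 16 UMIs).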

How the results depend on the processing

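No paired analysis was possible because each stage is 1 library. The higher summed level at E14.5 and E15.5 than at E13.5 held under every alternative run. Against a main log2 ratio of 1.39, E14.5 against E13.5 gave 1.32 with the stricter gate, 1.49 without osteogenic and chondrogenic cells, 2.84 over all cells of the library, 1.25 with the cluster mix fixed, 1.44 in cells without a neural marker UMI and 1.46 without a meningeal one. Against 1.52, E15.5 against E13.5 gave 1.45, 1.66, 2.94, 1.37 and 1.40 under the first 5 of these, 1.57 with TMM and 1.48 without the largest E13.5 cluster. Over all cells the median of all genes was 0.10 and 0.08, against 0.01 and -0.01 in the lineage. The small ratio of 0.13 for E15.5 against E14.5 gave 0.17 with TMM and without osteogenic and chondrogenic cells, 0.10 over all cells, 0.091 without meningeal and -0.038 without neural marker UMIs, where its sign turned. The neural, meningeal and largest-cluster alternatives were chosen after seeing the data, and the neural one leaves 175, 469 and 684 cells.

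Counts of members at least 2-fold higher went from 15 to 31 (E14.5) and from 16 to 30 (E15.5) over all cells, of 31 tested, where 17.2% and 18.6% of all genes were higher. Of 0 lower members, 1 appeared at E14.5 with the cluster mix fixed, where 5.70% of all genes were lower. At E15.5 1 appeared with no minimum CPM (3.75% of all genes), without osteogenic and chondrogenic cells (5.38%), or without the largest cluster (7.46%). For E15.5 against E14.5, the 0 higher members became 3 of 31 with the mix fixed (3.93% of all genes), 2 of 40 with no minimum (1.57%), and 1 with a pseudocount of 0.1, the stricter gate, at least 1000 genes, TMM, all cells or no neural marker. The 1 lower member became 2 with no minimum, a pseudocount of 0.1, cells weighted equally, without osteogenic and chondrogenic cells, and without neural or meningeal marker UMIs, where 1.77%, 1.73%, 1.74%, 1.36%, 3.55% and 1.96% of all genes were lower. The 16 members led by a class outside the lineage were 5 at E13.5 alone.

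Single genes whose interval had excluded 0 turned sign as follows. Over all cells, Col11a1 and Col11a2 were at 1.25 and 1.01 for E15.5 against E13.5. Without osteogenic and chondrogenic cells Col11a1 was at 0.68 and, against E14.5, 0.15. With the mix fixed, E14.5 against E13.5 gave -0.99 for Col23a1 and -1.06 for Col25a1, E15.5 against E13.5 gave 0.26 for Col11a1, 1.60 for Col11a2, -0.60 for Col23a1 and -0.61 for Col25a1, and Col24a1 was at -0.084 against E14.5. Without neural markers Col23a1 and Col25a1 were at -0.15 and -0.11 (E14.5 against E13.5), Col1a1 at -0.14 and Col8a1 at 0.19 (E15.5 against E14.5). Without the largest cluster Col27a1 was at -0.016 (E15.5 against E13.5). The fixed mix also leaves out every cluster but 5, so it changes the cells as well as the mix, and the cause was not tested. Of the other values for single genes, log2 ratios and shares of cells together, 1012 stayed within their interval and 188 moved beyond it. The leading class was the same for 24 of 40 members with the stricter gate and 22 by clusters. None of the 13 members led by osteogenic cells in the main run kept that class under either, and no cluster was named osteogenic. Classes of few cells have wide intervals.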

Other observations

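Some collagens were higher in some clusters of the mesenchyme than in others. Col14a1 stood at 446 CPM at E14.5 and 399 at E15.5 in cluster 23, where Dpt (dermatopontin, a matrix protein that binds decorin) was among the leading genes. Col8a1 stood at 770 and 354 CPM in cluster 18, and at 492 and 346 CPM in cluster 23, so that the levels of these clusters were close at E15.5. Clusters 4 and 20 were near them at that stage, with 323 and 292 CPM. Col23a1 stood at 588 and 482 CPM in cluster 4, against 307 and 436 CPM in cluster 18. In muscle cells, with 21 cells at E14.5, Col26a1 and Col19a1 were at 358 and 179 CPM, on 28 and 14 UMIs.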
